A study of Mus musculus with 29 samples.

Results

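The 10 fast fibre genes examined here encode the contractile and calcium-handling machinery of fast-twitch muscle fibres. They were chosen by name, with earlier results of these data known, and all 10 were found among the 24770 gene symbols of the count table. They are the fast myosin heavy chains Myh2 (type IIa), Myh1 (type IIx) and Myh4 (type IIb), the fast regulatory light chain Mylpf, the fast troponins Tnnc2, Tnni2 and Tnnt3, the Z-disc protein Actn3, the calcium pump Atp2a1 (SERCA1) and the calcium store protein Casq1. RNA-seq was performed on gastrocnemius skeletal muscle (SkM) and on brown adipose tissue (BAT) of wild-type male C57BL/6J mice. From 8 weeks of age, mice were fed ad libitum and kept sedentary (control), given calorie restriction down to 70% of ad libitum intake (CR), trained on a treadmill on 5 days a week (EX), or given both (CREX), for 8 weeks. SkM had 4 control, 3 CR, 4 EX and 3 CREX libraries, BAT had 3 control and 4 each of CR, EX and CREX libraries, and the mice were fasted for 6 h and killed 24 h after the last run.

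Myosin heavy chain is the motor of the muscle filament, and each fibre is typed by the heavy chain it makes. In mouse limb muscle, IIa fibres are oxidative, IIb fibres are fast and glycolytic, IIx fibres lie between them, and the mouse gastrocnemius is a mostly fast muscle. Calcium released from the sarcoplasmic reticulum, where calsequestrin stores it, binds troponin C, troponins I and T then free actin for myosin, and SERCA1 pumps the calcium back, while alpha-actinin-3 anchors actin filaments at the Z-disc of fast fibres.

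The myosin heavy chain genes lie side by side on chromosome 11 and are near copies of each other, which bears on how reads can be assigned. In the GENCODE annotation of GRCm38, Myh2 spans chr11:67171027-67197517, Myh1 spans chr11:67200052-67224575 and Myh4 spans chr11:67238029-67260446, all on the plus strand. Their coding sequences were 91.1% identical between Myh2 and Myh1, 90.2% between Myh1 and Myh4 and 88.2% between Myh2 and Myh4. Reads were 150 bases long, and 122 windows of that length were identical between Myh2 and Myh1, against 15 between Myh1 and Myh4 and 0 between Myh2 and Myh4. The 60-base coding stretch that differs most among the 3 genes is shown to let them be told apart by eye, with capitals at the 24 positions where at least 1 gene differs from another. It lies at chr11:67191348-67191407 (exon 29 of Myh2), chr11:67217464-67217523 (exon 29 of Myh1) and chr11:67254458-67254517 (exon 28 of Myh4), and is written 5′ to 3′ on the plus strand.
Myh2: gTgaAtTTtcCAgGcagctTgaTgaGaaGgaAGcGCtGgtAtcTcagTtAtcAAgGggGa
Myh1: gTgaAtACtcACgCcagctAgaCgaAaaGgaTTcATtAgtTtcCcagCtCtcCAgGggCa
Myh4: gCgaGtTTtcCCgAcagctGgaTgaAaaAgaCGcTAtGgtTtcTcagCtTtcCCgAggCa

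By contrast, the next 60-base stretch was the same in all 3 genes, at chr11:67179553-67179612 (exon 14 of Myh2), chr11:67206531-67206590 (exon 14 of Myh1) and chr11:67245718-67245777 (exon 13 of Myh4), and its letters alone do not tell the genes apart. No identical run shared by Myh2 and Myh4 was as long as a read.
Myh2, Myh1 and Myh4: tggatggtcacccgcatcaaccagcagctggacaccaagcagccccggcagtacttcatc

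RSEM shares reads that match several genes among them in proportion to the other reads. The deposited values of Myh1, Myh2 and Myh4 were fractions in 24, 23 and 20 of the 29 libraries, whereas those of the other 7 genes were whole numbers in every library. Low values of Myh1 and Myh2 beside a high Myh4 are therefore less certain than the values of the single-copy members. Exons of Myh1, Myh2, Tnnc2, Atp2a1 and Casq1 also overlap those of a gene on the opposite strand, and the sources used here do not state whether the counting used strand.

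Each library held 23050918 to 23425284 counts in SkM and 21047242 to 24919377 in BAT. Mice are named by the replicate number within a tissue. The labels do not say whether the same number in SkM and BAT is the same animal. The SkM libraries carried muscle fibre markers (Acta1, Ckm, Des, Ttn and Neb, 57730 to 97520 CPM in sum), and the BAT libraries carried brown adipocyte markers (11120 to 15950 CPM in sum, against 78.9 to 215 in SkM). SkM libraries of CREX mice 2 and 3 stood apart, with slow fibre scores (mean log2 CPM of 12 slow contractile genes) of 3.18 and 2.28, against 6.04 in CREX mouse 1, 5.04 in EX mouse 1 and 6.23 to 7.45 in the other SkM libraries. Endothelial markers (Pecam1, Cdh5 and Kdr, none of them absent) summed to 109 to 151 CPM in CR and 80.9 to 168 in CREX SkM, below 179 to 240 in control and 187 to 231 in EX SkM, and their part in the results was not tested. In bulk tissue, fewer fibres of a type and less RNA per fibre cannot be told apart.

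In control muscle, the small thin filament genes stood highest per length. Levels are CPM, a gene's counts scaled to a common library total, with TMM factors of the tissue (TMM CPM), here divided by the transcript length in kilobases. Tnnt3 was at 11744 ± 1243 (SD, n = 4) TMM CPM per kb and Tnnc2 at 10718 ± 1875, followed by Tnni2 at 6703 ± 1305, Atp2a1 at 6202 ± 511, Mylpf at 5800 ± 1352 and Myh4 at 4365 ± 915. The ranges of neighbours in this order overlapped from Tnnt3 down to Myh4. Actn3 (1605 ± 144) lay below Myh4 and above Casq1 (996 ± 101) without overlap. Casq1 lay above Myh2 (479 ± 110) without overlap, and Myh2 could not be separated from Myh1 (440 ± 107). Together the 10 genes took 7.83 to 9.65% of all counts in the control and EX libraries and 12 to 15.5% in the CR and CREX libraries, with no overlap.

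CR against control addresses what restriction did in sedentary mice. CR muscle had more Actn3, Mylpf and Atp2a1, the largest rise being 2.47-fold for Actn3, and these 3 of the 10 genes passed edgeR's test (Benjamini-Hochberg adjusted p under 0.05 over all genes and a fold change above 1.5). No member fell past these thresholds. Of all 13173 genes tested, 4.27% were called higher and 5.32% lower. At an adjusted p under 0.05 with any fold change, 6.29% of genes were higher and 7.67% lower, with the same 3 members among them. In 4 members every CR library lay above every control library, as in 13.3% of genes (14.2% the other way), and 5 members had an unadjusted edgeR p under 0.05, as did 29.3% of genes. The median log2 fold change of the 10 genes was 0.20, against 0.00 over all genes tested.

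Actn3 stood at 14223, 10726 and 9158 TMM CPM in the CR libraries and at 4548, 4635, 5180 and 4171 in the control libraries. Every CR library lay above every control library. The log2 fold change was 1.3 ± 0.17 (SE, edgeR adjusted p = 0.00115). Actn3 stayed called under each of the 15 alternatives, with log2 fold changes from 1.09 to 1.43.

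Atp2a1 stood at 35778, 31552 and 29691 TMM CPM in CR and at 19195, 21650, 23498 and 21910 in control, again without overlap. Its log2 fold change of 0.59 ± 0.13 (edgeR adjusted p = 0.0162) amounted to a 1.51-fold rise, at the edge of the fold threshold, and it lost the call in 5 of 15 alternatives, among them those without CR mouse 1, control mouse 1 or control mouse 2 (log2 fold changes from 0.50 to 0.72 and adjusted p from 1.24e-05 to 0.0602 over the 15). Mylpf, the light chain that binds the neck of fast myosin, was at 11991, 6878 and 6751 TMM CPM in CR and at 5731, 4476, 4370 and 3196 in control. The groups did not overlap, and CR mouse 1 stood far above the other libraries. The rise of Mylpf was 0.95 ± 0.24 on the log2 scale (edgeR adjusted p = 0.0284), and 0.61 (edgeR adjusted p = 0.0525) without CR mouse 1. Without CR mouse 1, or without control mouse 2, Actn3 was the 1 member still called. Mylpf also lost the call when control mouse 2, 3 or 4 was left out (edgeR adjusted p from 0.062 to 0.0828, within 0.00104 to 0.0828 over the 15 alternatives).

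The myosin heavy chains did not move together. Myh4 was at 35058, 38627 and 37022 TMM CPM in CR and at 18193, 27281, 29796 and 29773 in control. All CR libraries lay above all control libraries, but the difference of 0.50 ± 0.17 on the log2 scale did not pass (edgeR adjusted p = 0.0878). Myh2 was at 1068, 1680 and 2217 TMM CPM in CR and at 2966, 2942, 2056 and 3696 in control, with CR mouse 3 inside the control range. Its log2 fold change was -0.82 ± 0.25 (edgeR adjusted p = 0.0556), and it was called lower with DESeq2 (-0.81, adjusted p = 0.00966) and without CR mouse 3 (-1.09, edgeR adjusted p = 0.0268), within a range of adjusted p from 0.00966 to 0.503 over the 15 alternatives. Myh1 was at 1505, 3752 and 3265 TMM CPM in CR and at 1885, 2625, 2708 and 3474 in control, so the groups overlapped at both ends, and the log2 fold change was 0.09 ± 0.28 (edgeR adjusted p = 0.873).

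The troponins and Casq1 gave log2 fold changes of 0.07 ± 0.19 for Tnnc2, 0.16 ± 0.20 for Tnni2, 0.24 ± 0.16 for Tnnt3 and 0.16 ± 0.13 for Casq1. In all 4 genes the CR and control libraries overlapped, and CR mouse 1 had the highest value of the 7 libraries for each troponin.

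**Figure D1:**
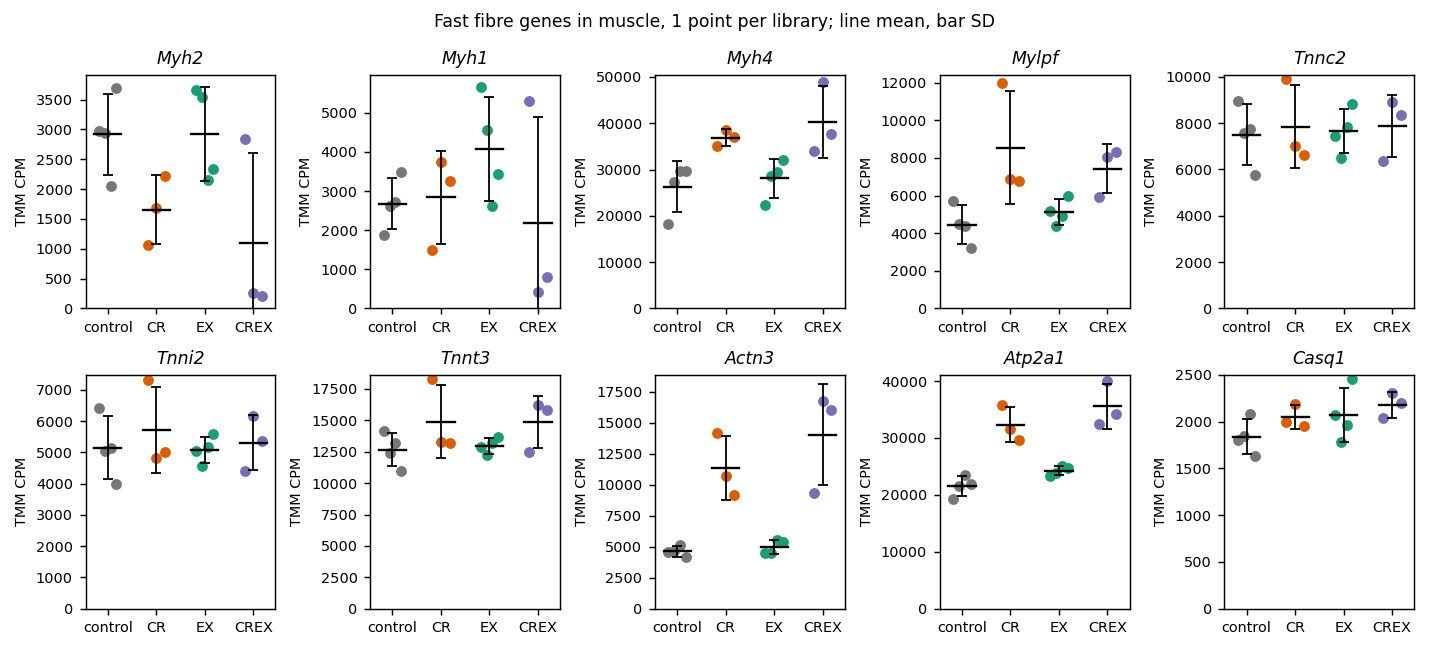
TMM CPM (linear axis from 0) of the 10 genes in each muscle library, by group, with the mean as a line and the SD as a bar (cut at 0 where it would go below). Actn3, Atp2a1 and Myh4 lie higher in every CR and CREX library than in every control and EX library. The share of all genes that do so was not counted. Myh2 is at 257 and 207 in CREX mice 2 and 3.

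CREX against EX addresses restriction in trained mice. Actn3 was again higher, 2.83-fold, and was the 1 member called, against 3.7% of 13112 genes called higher and 5.17% called lower. With any fold change, 6.62% of genes were higher and 6.96% lower at an adjusted p under 0.05, and 2 members were among the higher. At an unadjusted edgeR p under 0.05 stood 4 members and 32.3% of genes. It stood at 9332, 16792 and 16080 TMM CPM in CREX and at 4509, 4488, 5516 and 5357 in EX. No CREX library overlapped the EX range, and the log2 fold change was 1.5 ± 0.20 (edgeR adjusted p = 0.00505). Without the libraries of CREX mice 2 and 3, which stood apart in slow fibre genes, Actn3 in the remaining CREX library was 0.91 ± 0.14 above EX on the log2 scale (edgeR adjusted p = 0.00562, a setting chosen after the values were seen, in which 1 library is assumed to vary like the EX libraries). With the slow fibre score as a covariate it was 1.10 ± 0.26 (edgeR adjusted p = 0.107, the highest of 16 alternatives, of which the lowest was 2.36e-11), and the calls over all genes went from 1163 to 52.

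Atp2a1 was at 32415, 40048 and 34126 TMM CPM in CREX and at 23350, 23786, 25132 and 24689 in EX. The groups did not overlap, but the 1.46-fold difference (log2 0.55 ± 0.12, edgeR adjusted p = 0.0227) was under the fold threshold. Myh4 was at 33976, 48990 and 37783 TMM CPM in CREX and at 22257, 28625, 29426 and 32120 in EX. All CREX libraries lay above all EX libraries, as in 13.8% of genes (14.5% the other way), by 0.52 ± 0.17 on the log2 scale (edgeR adjusted p = 0.0713). Mylpf was at 5926, 8058 and 8312 TMM CPM in CREX and at 5201, 4356, 4914 and 5990 in EX, where CREX mouse 1 lay inside the EX range (log2 0.54 ± 0.16, edgeR adjusted p = 0.0525).

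Myh2 and Myh1 split the CREX group. Myh2 was at 2836 TMM CPM in CREX mouse 1 but at 257 and 207 in mice 2 and 3, against 3661, 3544, 2145 and 2342 in EX. Myh1 was at 5296 TMM CPM in CREX mouse 1 but at 417 and 811 in mice 2 and 3, against 5665, 4558, 2626 and 3433 in EX. The low libraries were those with low slow fibre scores, and the fitted log2 fold changes had large errors, at -1.41 ± 1.01 for Myh2 (edgeR adjusted p = 0.382) and -0.90 ± 0.90 for Myh1 (edgeR adjusted p = 0.529). Without CREX mouse 1, 6 members were called, with Myh2 at -3.66 and Myh1 at -2.73 lower and Actn3, Atp2a1, Myh4 and Mylpf higher, while 954 of 13328 genes were called higher and 1616 lower in that fit. Without CREX mice 2 and 3, Myh2 was at -0.05 and Myh1 at 0.38. The troponins and Casq1 gave log2 fold changes from 0.04 (Tnnc2) to 0.19 (Tnnt3), with overlapping groups and SEs of 0.13 to 0.16.

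EX against control addresses training in freely fed mice. None of the 10 genes was called by edgeR or by DESeq2, against 0.0232% of genes called higher and 0.0542% lower by edgeR. With any fold change, 0.0232% of genes were higher and 0.0697% lower at an adjusted p under 0.05. Myh1 was the 1 member with an unadjusted edgeR p under 0.05, as were 6.85% of genes (DESeq2 gave 2 members). The EX and control libraries overlapped for all 10 genes, where 2.01% of genes were higher and 2.21% lower in every EX library. The 4 EX libraries held 5665, 4558, 2626 and 3433 TMM CPM of Myh1 and the control libraries 1885, 2625, 2708 and 3474, so the ranges overlapped, and the log2 fold change was 0.60 ± 0.24 (edgeR adjusted p = 0.668). Fold changes of the other 9 genes lay between -0.02 (Tnni2) and 0.20 (Mylpf) on the log2 scale, with SEs from 0.09 to 0.21.

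CREX against CR, which adds training to restriction, also gave no call among the members. edgeR found 0 members with an unadjusted p under 0.05, as did DESeq2, against 3.65% of genes, and edgeR called 0% of the 13068 genes in either direction. The groups overlapped for every member, where 4.44% of genes were higher and 3.42% lower in every CREX library. Log2 fold changes ran from -0.59 ± 1.07 (Myh2) to 0.30 ± 0.27 (Actn3). Without CREX mouse 1, Myh2 was called lower in this comparison (-2.85, edgeR adjusted p = 0.0163), among 84 genes called lower and 15 called higher. The interaction term, which tests whether the CR effect differs between trained and sedentary mice, was not past the threshold for any member in SkM (edgeR adjusted p of 0.941 or higher). There edgeR called 0% of 13610 genes and gave 0 members an unadjusted p under 0.05, against 4.92% of genes, and DESeq2 gave 0 members as well. For Actn3 the CR effect in trained mice minus that in sedentary mice was 0.22 ± 0.28 on the log2 scale. Without CREX mouse 1, Myh1 (-2.78) and Myh2 (-2.80) were called for the interaction, among 180 of 13905 genes.

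**Figure D2:**
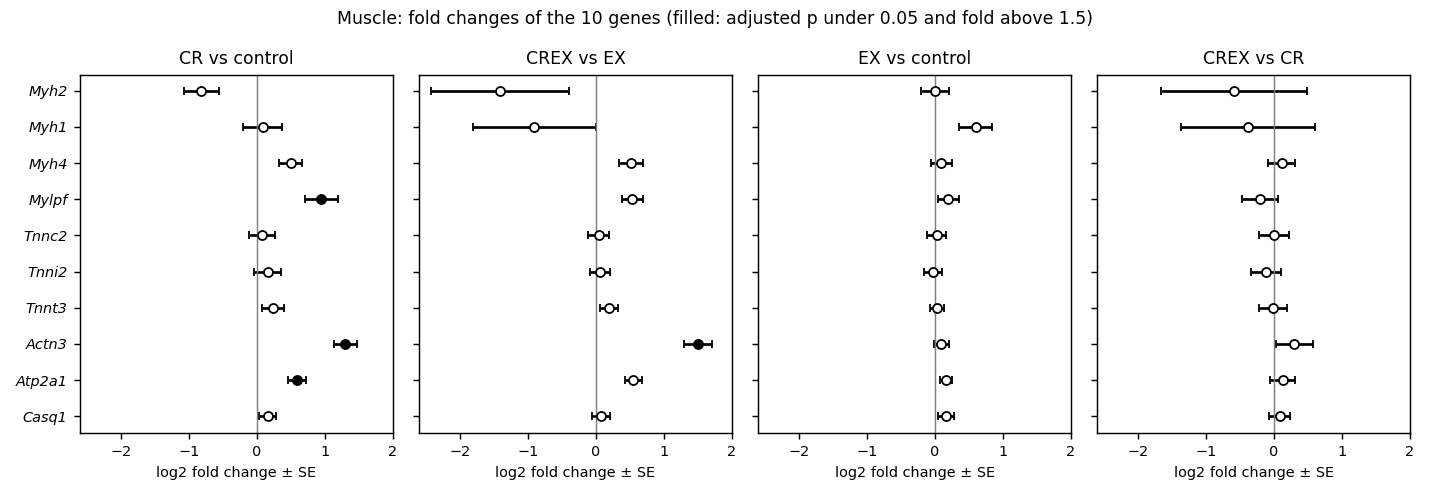
Log2 fold change (points) with its SE (bars) of the 10 genes in the 4 muscle comparisons, from edgeR, with filled points where the adjusted p was under 0.05 and the fold above 1.5. Actn3 is filled in CR against control (1.3) and CREX against EX (1.5), Mylpf and Atp2a1 in the first alone, and no point is filled in the panels on training.

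The shares of the 3 fast myosins, from counts divided by transcript length, describe the fast myosin RNA of each library. Slow myosin is not part of them, and fibre types were not measured. Type IIb (Myh4) held 79.1, 83.2, 86.3 and 80.8% in the control libraries and 93.2, 87.8 and 87.2% in the CR libraries. Every CR library lay above every control library, and the means were 89.4 ± 3.3% (SD, n = 3) and 82.4 ± 3.1% (n = 4). The difference of 7.05 percentage points had an exact two-sided permutation p of 0.0571 (adjusted over 12 tests, 0.343), where 0.0286 was the smallest p that 3 against 4 libraries allow.

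Type IIa (Myh2) held 12.8, 8.88, 5.89 and 9.92% in control and 2.81, 3.78 and 5.17% in CR, again without overlap, with the same exact permutation p of 0.0571 (adjusted 0.343). Type IIx (Myh1) held 8.11, 7.92, 7.76 and 9.32% in control and 3.96, 8.44 and 7.61% in CR, where CR mouse 1 was low and the others sat near the control values (exact permutation p = 0.257, adjusted 0.441). The log2 ratio of Myh4 to Myh2 was 1.37 higher in CR (exact permutation p = 0.0571).

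In trained mice, IIb held 70.7, 78.1, 86.2 and 84.9% in EX and 80.9, 98.7 and 97.4% in CREX, so CREX mouse 1 lay within the EX range and the other 2 libraries held almost nothing but IIb. IIa held 11.5, 9.57, 6.21 and 6.12% in EX and 6.67, 0.511 and 0.528% in CREX, and IIx held 17.8, 12.3, 7.61 and 8.98% in EX and 12.5, 0.83 and 2.07% in CREX. None of these differences passed the exact permutation test (adjusted p = 0.429 for IIb and IIa and 0.441 for IIx). EX and control differed by -2.38 points in IIb and 3.39 in IIx (exact permutation p = 0.6 and 0.257, adjusted 0.72 and 0.441), and CREX and CR by 2.89 points in IIb (exact permutation p = 0.8, adjusted 0.8, where 3 against 3 libraries cannot go below 0.1). Both IIb differences turned sign with 1 library left out, to 0.71 for EX and control without EX mouse 1 and to -0.28 for CREX and CR without CREX mouse 2.

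**Figure D3:**
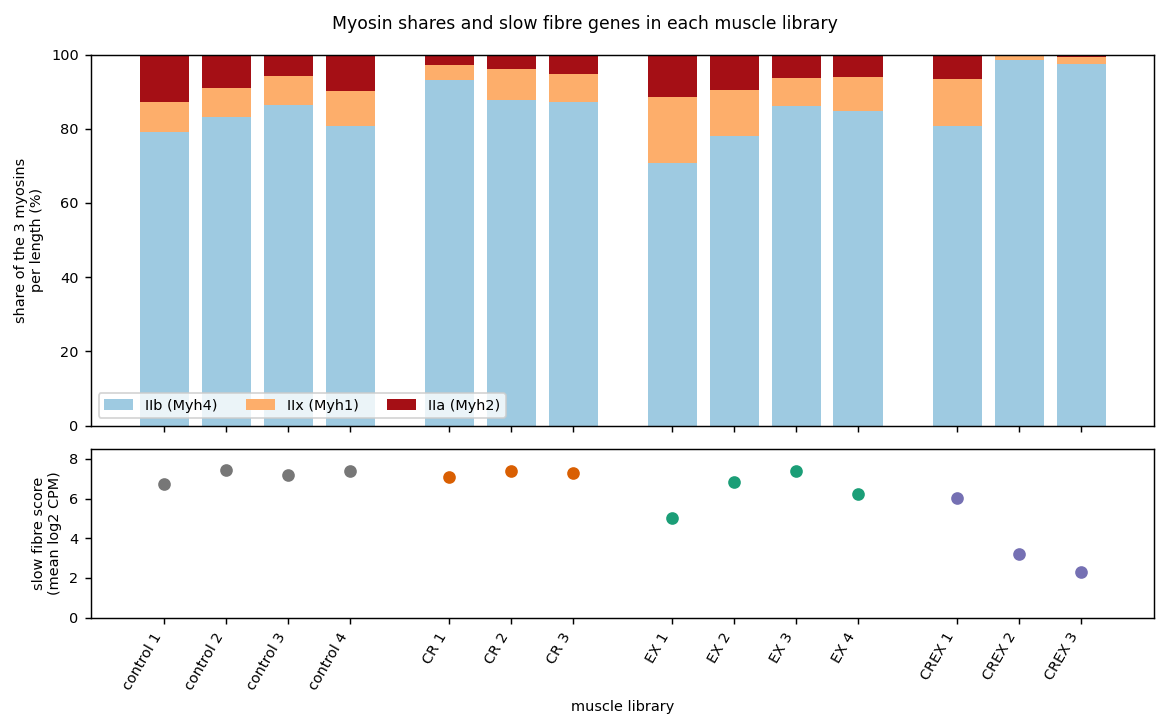
Upper panel, percent of the 3 fast myosins per length held by IIb (Myh4), IIx (Myh1) and IIa (Myh2) in each muscle library. Lower panel, the slow fibre score (mean log2 CPM of 12 slow contractile genes), which is at 3.18 and 2.28 in CREX mice 2 and 3, the libraries with IIb shares of 98.7 and 97.4%.

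The composition of the fast fibre RNA, as each gene's percent of the counts of all 10, was looked at after the levels had been seen and is given without a test. Actn3 held 4.71 to 5.43% of the 10-gene counts in control and 4.75 to 5.63% in EX muscle, against 7.97 to 10.4% in CR and 8.11 to 12.5% in CREX muscle, with no overlap between restricted and freely fed mice. Atp2a1 held 22.9 to 24.7% in control, 25.8 to 26.2% in CR, 23.6 to 25.7% in EX and 26.4 to 28.2% in CREX muscle, which also did not overlap. Tnnc2 went the other way, with 6.51 to 10.7% in control and 6.90 to 8.45% in EX muscle against 5.76 to 7.22% in CR and 5.52 to 6.47% in CREX muscle, where the CR range overlapped control and EX. Since the percents of a library add up to a whole, a higher share of 1 gene lowers the others.

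**Figure D4:**
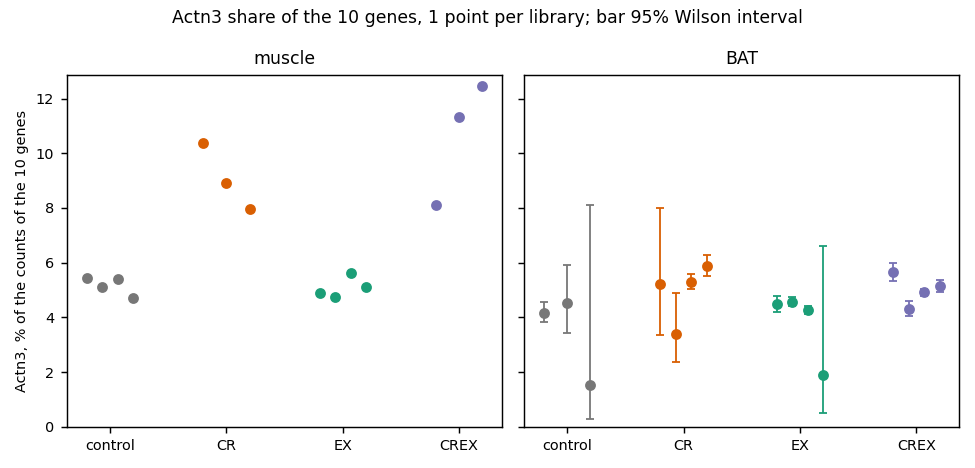
Actn3 in percent of the counts of the 10 genes, 1 point per library of muscle (left) and BAT (right), with 95% Wilson intervals that cover counting error only. In muscle all CR and CREX points are at 7.97% or higher and all control and EX points at 5.63% or lower, while BAT values lie between 1.52 and 5.89%.

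Other muscle gene lists place these values, and each is given by its counts. Of 10 other fast contractile genes, 0 were called higher and 1 lower in CR against control, and 1 higher and 0 lower in CREX against EX (medians of 0.29 in both, log2). Myom2, an M-band protein, had log2 fold changes of 0.44 (edgeR adjusted p = 0.0474) and 0.52 (edgeR adjusted p = 0.0236), both under the fold threshold. Ampd1, the muscle AMP deaminase, rose by 0.71 in CREX (edgeR adjusted p = 0.0319), and the low Myh13, a myosin of extraocular muscle, fell by 1.42 in CR (edgeR adjusted p = 0.0182). Of 12 slow contractile genes, 2 were called higher in CR (Casq2 at 0.60, edgeR adjusted p = 0.00362, and the slow light chain Myl2 at 0.62, edgeR adjusted p = 0.0285) and 0 in CREX, where all 12 had negative fold changes with a median of -1.98.

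Among 15 pan-fibre genes, 0 were called higher and 2 lower in CR and 1 lower in CREX. Lmod3, a thin filament nucleator, fell in both (log2 -0.79 in CR, edgeR adjusted p = 0.0104, and -0.91 in CREX, edgeR adjusted p = 0.00559), and the oxygen store Mb fell in CR (-0.78, edgeR adjusted p = 0.0119). Actn2, the alpha-actinin of all fibres, was lower in every CR library than in every control library, at 899 ± 97 against 1255 ± 54 TMM CPM (log2 -0.48, edgeR adjusted p = 0.0265, under the fold threshold), while Actn3 was higher. In CREX, Actn2 was at 605 ± 534 (n = 3), against 1205 ± 90 (n = 4) in EX (edgeR adjusted p = 0.254).

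Of 15 excitation-contraction coupling genes, 2 were called higher in each comparison and 0 lower. Sln, sarcolipin, an inhibitor of the SERCA pumps, rose by 2.02 in CR (edgeR adjusted p = 0.0013) and 2.73 in CREX (edgeR adjusted p = 0.035) from low levels of 1.65 and 1.41 TMM CPM. Cacnb1, a subunit of the muscle calcium channel, rose by 0.74 in CR (edgeR adjusted p = 0.00213) and had 0.47 in CREX (edgeR adjusted p = 0.0301, under the fold threshold). The other call in CREX, named after its values were seen, was the calcium channel subunit Cacng1 (1.17, edgeR adjusted p = 0.039), whose groups overlapped.

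Of 22 fibre type regulators, 2 were called higher and 2 lower in CR, and 3 higher and 0 lower in CREX. Mafa, a large Maf factor known to act on the IIb myosin gene, rose by 1.10 in CR (edgeR adjusted p = 0.00159) and 1.03 in CREX (edgeR adjusted p = 0.00804). Six4, a homeobox factor of fast muscle genes, fell by 1.0 in CR (edgeR adjusted p = 0.0013), and Rcan1, a calcineurin target, fell by 0.79 in CR (edgeR adjusted p = 0.00389). Myogenin (Myog) rose by 0.91 in CREX (edgeR adjusted p = 0.0303). The other calls, Myod1 in CR (0.60) and Maf in CREX (1.14), are named after their values were seen. Of the 6 developmental fibre genes tested, 2 were called higher in CR and 1 in CREX, and Chrna1, an acetylcholine receptor subunit, was among them in both (0.84 and 0.98, edgeR adjusted p = 0.0107 and 0.0102).

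The genes whose log2 CPM followed each myosin most closely over the 14 SkM libraries, among 6286 genes with a mean of at least 10 CPM, differed between the myosins. For Myh2 they were Atp1b1 (Pearson r = 0.981), Apol6, Adck3, Evc and Lpl (0.973), and for Myh1 they were Got2 (0.942), Mybpc1, Epas1, Enah and Adck3 (0.920). For Myh4 they were Trdn (0.962), Cacna2d1, Zc3h4, Nop14 and Mbnl1 (0.921). These values are a description, since all libraries share the group differences and CREX mice 2 and 3 lie far from the rest.

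In BAT the 10 genes were present in every library at levels that differed by orders of magnitude between mice of the same group. The summed counts of the 10 genes were 12019, 1083 and 66 in control mice, 365, 793, 26834 and 13418 in CR mice, 20764, 65356, 67216 and 106 in EX mice and 19232, 22957, 113315 and 41825 in CREX mice. Low and high libraries occurred in the control, CR and EX groups, and the 4 CREX libraries were all high. Together the genes took from 0.000268 to 0.462% of the counts of a BAT library.

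Relative to the mean SkM level of the same treatment (CPM on library totals), the median member stood at 0.597, 0.0512 and 0.00207% of muscle in control BAT. It was at 0.0111, 0.0207, 0.906 and 0.455% in CR, at 0.977, 3.33, 3.09 and 0.00508% in EX and at 0.56, 0.746, 3.38 and 1.34% in CREX BAT. General muscle fibre markers moved with these values, with Acta1, Ckm, Des, Ttn and Neb summing to 47.0 to 403 CPM in control, 50 to 836 in CR, 47.2 to 2513 in EX and 607 to 3851 in CREX BAT, and none of them absent. In control BAT these sums spanned a narrower range than the median member, at 0.00207 to 0.597% of muscle. What else adds to the lowest sums was not tested. Satellite cell markers (Pax7, Myf5, Chodl and Calcr) summed to at most 1.38 CPM in any BAT library, but to only 6.54 to 8.93 CPM in the SkM libraries.

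The calcium pump gene Atp2a1 had 3244, 247 and 11 counts in control, 90, 143, 7781 and 3587 in CR, 5131, 18380, 16226 and 2 in EX and 5518, 6677, 32309 and 12578 in CREX mice. Myh4 had 3234, 323 and 7 counts in control, 111, 142, 6365 and 3512 in CR, 6508, 16252, 12132 and 4 in EX and 5381, 5805, 30653 and 10643 in CREX mice. Both genes were high and low in the same libraries, and no 2 groups compared were separated. CREX against control was not among the comparisons, and there every CREX library held more counts of both genes than every control library. The share of all genes that do so was not counted. At 3 counts a gene stands at 0.120 to 0.143 CPM in BAT, so that control mouse 3, with 3 members at 3 counts or fewer, and EX mouse 4, with 4 such members, say little on single genes.

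No member was called in any of the 4 BAT comparisons. In CR against control the median log2 fold change of the 10 genes was 1.17, in CREX against EX 0.21, in EX against control 3.19 and in CREX against CR 2.12, with SEs of single members between 1.17 and 2.54. With all libraries and no block or covariate, edgeR gave 0 members with an unadjusted p under 0.05 in all 4 comparisons. The shares of genes were 35.8, 25.6, 7.25 and 7.63% in that order, and DESeq2 gave 0, 0, 2 and 0 such members and no call. The covariate fits described below gave 1, 1, 2 and 0 such members with edgeR. Leaving out 1 library gave at most 1, without EX mouse 4 in EX against control and without CR mouse 3 in CREX against CR. Over all genes, the shares called higher and lower were 3.87 and 6.86% in CR against control, 1.86 and 2.63% in CREX against EX, 0% in both directions in EX against control, and 0.00763 and 0% in CREX against CR. With any fold change the shares higher and lower at an adjusted p under 0.05 were 9.99 and 10.9% in CR against control and 3.71 and 4.3% in CREX against EX. Genes without overlap between the groups, which included no member, were 16.6% higher and 16.8% lower in CR against control, 8.86 and 8.87% in CREX against EX, 3.14 and 4.96% in EX against control and 2.09 and 3.06% in CREX against CR. The BAT interaction term called 0% of 13922 genes and no member with either tool (0 members with an unadjusted edgeR or DESeq2 p under 0.05, against 5.75% of genes by edgeR). In CREX against CR, with the replicate number as a block, 9 members had an unadjusted edgeR p under 0.05 and none was called, while the calls over all genes went from 1 to 51. The medians depended on single libraries. With 1 library left out at a time, they ran from 0.0734 (without CR mouse 3) to 4.26 (without control mouse 1) in CR against control and from -0.67 (without CREX mouse 3) to 0.62 (without EX mouse 3) in CREX against EX, where the sign turned. They ran from 2.61 (without control mouse 3) to 6.17 (without control mouse 1) in EX against control and from 1.29 (without CREX mouse 3) to 3.22 (without CR mouse 3) in CREX against CR.

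With the muscle RNA score (mean log2 CPM of the pan-fibre genes) as a covariate, the medians were -0.02 in CR against control, -0.04 in CREX against EX, -0.04 in EX against control and -0.14 in CREX against CR. In that fit Casq1 was called lower in CR (-0.59 ± 0.16, edgeR adjusted p = 0.0278), against 0.86 ± 1.76 without the covariate, and adjusted p over its 15 alternatives ran from 0.0278 to 0.964. Over all genes, 1015 of 13323 were called lower in that fit.

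The proportions among the 10 genes in BAT were close to those of muscle for several members, while the IIa and IIx myosins and Actn3 departed from them most. Over the 11 BAT libraries in which every member had at least 30 counts, a limit set after the values were seen, Atp2a1 lay between -0.09 and 0.21 log2 units from the median member of its library, once each gene was divided by its muscle level. Tnnc2 lay between -0.25 and 0.04, Tnni2 between -0.18 and 0.28 and Tnnt3 between -0.32 and -0.01. Myh4 lay between -0.61 and 0.14, Casq1 between -0.18 and 0.61 and Mylpf between -0.03 and 0.82. Actn3 was below the median member in each of these libraries, between -1.42 and -0.14. Myh2 lay between -1.88 and 2.66 and Myh1 between -1.12 and 1.91. The highest single value was Myh2 in CREX mouse 3, at 21.3% of CREX muscle, where 2 of the 3 CREX muscle libraries are low in Myh2.

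Against the mean of all SkM libraries, Myh2 was at 11% of muscle in CREX mouse 3, where the median member was at 4.10%, and at 8.60% in EX mouse 3, where the median member was at 2.73%. It was at 0.33% in EX mouse 1, below the median member at 0.871%. Over all BAT libraries, the median slow contractile gene ran from 0.127 to 67.2% of muscle and the median member from 0.00179 to 4.10%. The slow myosin Myh7 stood at 99.9% of its muscle mean in CREX mouse 3 and at 52.7% in EX mouse 3 but at 0.229% in EX mouse 2, where Myh4 was at 2.38%. Fast and slow genes stood in different proportions to muscle in different BAT libraries.

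The shares of the myosins also differed between BAT libraries. In those with at least 420 counts of the 3 myosins, IIb held 74.2 and 77.1% in control, 70.4 and 77.4% in CR, 92.1, 69.9 and 51.2% in EX and 79.1, 68.3, 73.8 and 73.5% in CREX BAT. IIa held from 2.34% (EX mouse 1) to 18.1% (EX mouse 3) in these libraries. The remaining 4 libraries had 8 to 156 counts of the 3 myosins.

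Actn3 lay below the median member in all 15 BAT libraries when each gene was set against all SkM libraries, at 0.206 to 0.764 of it. Those include the CR and CREX muscle libraries, where Actn3 was higher. Against muscle of the same treatment it was again below. In libraries with at least 30 counts of every member, it was nearer the median in control and EX than in CR and CREX mice. Actn3 was furthest below in control mouse 1 among the first (0.498 against 0.597%) and nearest in CR mouse 4 among the second (0.280 against 0.455%). Its share of the 10-gene counts was 4.18, 4.52 and 1.52% in control, 5.21, 3.40, 5.30 and 5.89% in CR, 4.48, 4.57, 4.27 and 1.89% in EX and 5.65, 4.32, 4.91 and 5.14% in CREX BAT. The ranges of restricted and freely fed groups overlapped, and the low values rest on 1 count of 66 in control mouse 3 (95% Wilson interval 0.268 to 8.10%) and 2 of 106 in EX mouse 4 (0.519 to 6.62%). Mylpf held 25.8% in control mouse 3, 24.6% in CR mouse 2 and 39.6% in EX mouse 4, libraries with few muscle counts, against 5.03 to 10.1% in the other 12 BAT libraries.

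**Figure D5:**
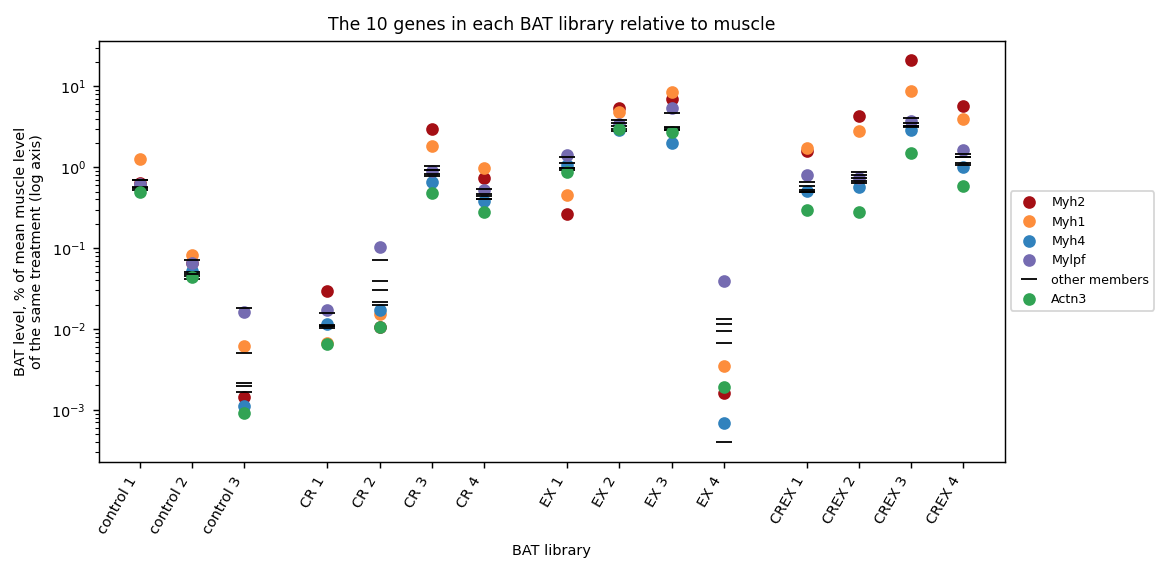
Level of the 10 genes in each BAT library in percent of their mean level in muscle of the same treatment (log axis), with 5 genes coloured and the others as dashes. All points lie between 0.000395 and 21.3%, and within a library the highest is 1.95 to 99.6 times the lowest. Control mouse 3 and EX mouse 4 are lowest. Myh2 and Myh1 lie above the rest in all 4 CREX libraries, where the muscle mean includes CREX muscle libraries low in both genes. Against all SkM libraries, Myh2 was at 1.21 to 2.68 times the median member in CREX and 0.379 to 3.15 times in EX BAT.

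The genes closest to the myosins over the 15 BAT libraries, among 6828 genes, were other muscle genes. For Myh2 the order began with Mybpc1 (r = 0.989), Myom2 and Nrap, for Myh1 with Myom2 (0.993), Cacna1s, Nrap, Mybpc1 and Ryr1, and for Myh4 with Mybpc2 (0.994), Ttn, Ckm, Acta1 and Ryr1. The points share the wide range of muscle counts between libraries.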

How the data were processed

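Libraries of SkM and BAT, 29 in all and taken as 1 per mouse and tissue, were grouped by their labels, and "CE" in the sample names was read as CREX. According to the study's methods, the authors trimmed reads with trim-galore 0.6.7, aligned them to mm10 with STAR 2.7.10a and quantified them with RSEM. The RSEM version is given as 1.2.28 in the submitters' processing notes and as 2.0.1 in the methods. The deposited values are expected counts per gene symbol, not normalized, from 150-base paired-end reads, and the annotation is not given in the sources used here. Expected counts were rounded to whole numbers.

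Each comparison was fitted on its own groups over all genes with edgeR 4.0.16 (robust quasi-likelihood, TMM, filterByExpr), in R 4.3.3. Calls needed a fold above 1.5 and, after Benjamini-Hochberg adjustment over all genes tested, a p under 0.05, and the SE is the size of the log2 fold change over the square root of F. DESeq2 1.42.0 was an alternative. P-values measure the spread between libraries of different mice, as far as the labels tell. Myosin shares used GENCODE vM21 transcript lengths (GRCm38), in place of the RefSeq lengths first planned, and exact permutation tests were run with scipy. The fits were tested on simulated data with planted changes (median fitted size 0.992 to 1.01 on the log2 scale). They recovered 152 of 197 changed genes in SkM CR against control and 128 of 197 in SkM CREX against EX. In BAT CR against control they recovered 144 of 193, and false calls were 9, 6 and 10 in that order. A gene that was not called may therefore still have changed. A level of 3 counts is 0.128 to 0.130 CPM in SkM.

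The members and all gene lists were chosen with earlier results of these data known. Every member was described, with up to 3 genes of smallest p from each list (not all are named) and the 5 best correlated genes for each heavy chain (for Myh2 in BAT the first 3, the rest not reported here). Alternatives were RLE factors, library totals, no filter, 1 fit over all groups, a replicate block, no fold minimum, each library left out, and a slow fibre or muscle RNA score as covariate.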

Additional observations from a re-analysis of the deposited data

How the results depend on the processing

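Of 810 alternative values for single members in SkM, 784 kept their side of the thresholds, 10 lost a call and 16 gained one, and none of those with a call changed sign. In BAT 819 of 820 did so, and the exception was Casq1 in CR against control, which went from 0.86 to a called -0.59 with the muscle RNA score as covariate, so that 1 member was called there. Uncalled fold changes changed sign in 80 SkM and 62 BAT cases. In CREX against EX, 1 called member became 2 with no fold minimum, 4 with library totals only and 0 with the slow fibre score. Scaling by library totals moved the median of all genes by 0.14 in CR against control and 0.16 in CREX against EX, and the calls from 563 higher and 701 lower to 895 and 368, and from 485 and 678 to 1153 and 485, so Myh4, Mylpf and Atp2a1, called there, are relative to that shift. The BAT median in CREX against CR was -0.14 with the muscle RNA score.

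When each library was left out, called members ran from 1 to 4 in CR against control, from 1 to 6 in CREX against EX, from 0 to 1 in CREX against CR and from 0 to 2 in the SkM interaction (Myh1 and Myh2, without CREX mouse 1), and the single member left in CR against control was without CR mouse 1 or control mouse 2. Calls over all genes in the same fits ran from 928 to 1377 in CR against control, from 343 (without CREX mouse 2) to 2570 (without CREX mouse 1) in CREX against EX, from 0 to 99 in CREX against CR and from 0 to 180 in the interaction, the last 2 highest without CREX mouse 1. The BAT median ran from 0.0734 (without CR mouse 3) to 4.26 (without control mouse 1) in CR against control. The replicate block gave 4 called members in CR against control (Myh4 in addition, edgeR adjusted p = 0.02) and changed no other call of a member. It moved the calls over all genes from 1163 to 646 in CREX against EX, from 1430 to 929 in BAT CR against control, from 10 to 1 in SkM EX against control and from 1 to 51 in BAT CREX against CR, where 9 members then had an unadjusted p under 0.05. The labels give same-numbered libraries nothing in common but the number. In no comparison did all pairs of them deviate together (correlations from -0.471 to 0.497). With so few libraries in a group, these correlations cannot decide whether same-numbered libraries shared a source of variation. DESeq2 moved the calls over all genes from 10 to 49 in SkM EX against control, 0 to 35 in SkM CREX against CR, 0 to 36 in BAT EX against control and 1 to 30 in BAT CREX against CR. Values of single genes are least precise in the BAT libraries with few muscle counts, whose total counts lay within the range of the other BAT libraries.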
